A study of Schizosaccharomyces pombe with 4 samples.

Results

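Of the 5123 protein-coding features outside the mitochondrial genome in an RNA-seq table of the fission yeast Schizosaccharomyces pombe, 169 span 5000 bases or more from annotated start to end. The table holds 7023 features in all, and the remaining 4954 coding loci are shorter. The rule used length and annotated class and no RNA value, though this length class was taken up with earlier results of these data known. They were measured on the sense strand, which carries the gene's own message, and on the antisense strand, in 2 spt6-1 libraries and 2 wild-type (WT) libraries. spt6-1 is a mutant allele of spt6. WT and mutant were both prototrophic strains, grown at 30 °C in a rich yeast extract medium (YES) and then held at 37 °C for 2 h, so the controls carry the same heat exposure. The libraries were made from polyadenylated RNA with adaptors ligated to the RNA, which keeps the strand. Levels are the authors' RPKM, reads per kilobase of feature scaled to library size. No label ties the replicates to separate cultures, so each p-value covers the variation among these libraries alone, which may be technical.

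Spt6 is a histone chaperone that travels with RNA polymerase II and helps to put nucleosomes back behind it. In yeasts that lack working Spt6, promoters hidden inside genes and on the opposite strand can be used, so that RNA appears from within coding regions. A long coding region carries many more nucleosomes per message than a short one. In fission yeast the longest genes encode large scaffolds, motors, kinases, glucan synthases and multi-domain metabolic enzymes.

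The spt6 message itself, which is not among the 169, was at 12.7 and 8.32 RPKM in spt6-1 and 65.5 and 61.6 RPKM in WT, a log2 change of -2.57 ± 0.24 (SE; adjusted p = 0.000539, limma). Every deposited value came out as a whole number of reads to within 0.01 read, which gave 39693042 and 16894607 sense reads in spt6-1 and 36520471 and 17093322 in WT. In spt6-1 replicate 1 those sense reads were 142% of the library total that the authors divided by, against 97.8% to 102% in the other 3 libraries. A smaller divisor raises every RPKM of that library, so results are also given without it or with libraries rescaled. The median sense RPKM over all coding features was 28.7 and 28.2 in spt6-1 and 27.1 and 28.3 in WT, with replicate 1 first.

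The loci ran from 5012 to 15252 bases, with a median of 5741, against 1888 over all coding features. The shortest members were SPBC887.02 at 5012 bases and zfs1 and SPBC26H8.04c at 5015, and just outside the limit lay SPBP35G2.02 at 4992 and mrpl24 and SPBC530.11c at 4980. Chromosome I held 86, chromosome II 50 and chromosome III 33. Their coding sequences had a median of 4731 bases and reached 5000 bases or more in 71, while in the other 98 the locus reached that length only with introns or annotated flanks. In 36 loci the coding sequence filled under 50% of the locus, and 31 of those 36 overlapped a coding gene on the opposite strand. The annotation therefore holds long proteins beside short proteins with long annotated flanks, and the results are given for each. Introns were absent from 99 members, 58.6% of them, against 51.1% of all coding features.

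Sequences are shown for the genes on which the results turn. The first are stretches that hold the difference between tlh1 and tlh2, genes of helicases next to the chromosome ends, which had the largest changes on either strand. Over 5662 aligned bases they were 99.982% identical, and the single substitution was C303T, with tlh1 first and the position counted from 1 at the 5′ end of the annotated tlh1 locus on its coding strand. Bases are 5′ to 3′ on the coding strand, from the RefSeq genome ASM294v3, with the differing base in capitals (tlh1, chrI:5310-5410, minus strand; tlh2, chrII:4527137-4527237, plus strand).
tlh1: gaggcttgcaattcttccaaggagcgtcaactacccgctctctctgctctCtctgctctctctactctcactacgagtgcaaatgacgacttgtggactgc
tlh2: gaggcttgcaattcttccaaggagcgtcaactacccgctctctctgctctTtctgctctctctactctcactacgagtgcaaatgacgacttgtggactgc
Reads of the pair can hardly be told apart, so their values are those of the pair. No other member had a copy of 95% identity or more over 200 bases.

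The others are stretches of 150 bases upstream of cut6, fas1 and fas2, which encode the enzymes of fatty acid synthesis and all fell on the sense strand. A search for 6 motifs on both strands was made in the 250 bases before the RefSeq start of 5112 genes. The letters GTGGGAA, which CSL family transcription factors are known to bind, stood in 64 of these windows (1.25%). Of the 169 members, 3 held them (1.78%), and those 3 were cut6, fas1 and fas2. This motif was added to the search after the values were seen, and a match is a description and not a bound site. The match is in capitals and reads TTCCCAC where it lies on the other strand. It begins 110 bases before the RefSeq start of cut6, 32 before that of fas2 and 38 before that of fas1. Each stretch ends just before the more upstream of the table's start and the RefSeq start, so it does not always end at the RefSeq start. The stretches lie on the minus strand of ASM294v3 at chrI:1253560-1253709 for cut6, chrI:2572626-2572775 for fas2 and chrI:3907057-3907206 for fas1.
cut6: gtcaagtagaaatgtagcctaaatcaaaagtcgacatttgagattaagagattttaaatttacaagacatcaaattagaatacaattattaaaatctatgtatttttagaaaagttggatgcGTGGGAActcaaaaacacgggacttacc
fas2: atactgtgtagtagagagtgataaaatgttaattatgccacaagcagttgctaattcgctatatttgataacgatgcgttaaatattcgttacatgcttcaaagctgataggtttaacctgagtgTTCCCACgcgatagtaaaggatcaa
fas1: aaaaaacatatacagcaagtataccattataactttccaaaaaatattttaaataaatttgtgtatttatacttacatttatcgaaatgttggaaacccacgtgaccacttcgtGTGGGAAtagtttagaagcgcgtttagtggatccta
The other motifs searched were TATAAA, in 37.9% of member windows and 44.4% of all; GAANNTTC, the heat shock element core, in 11.2% and 9.49%; TGACGT, the core of ATF and CREB sites, in 4.73% and 5.52%; CAGTCACA, the HomolD box, in 0.592% and 2.62%; and ACGCGT, the MCB element, in 0.592% and 2.64%. The windows of ura1, glt1 and sib1, described below with the same enzymes, held none of the 6.

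On the authors' scaling, antisense RNA over the long genes was far higher in spt6-1. The median member was at 5.49 and 4.41 antisense RPKM in the spt6-1 libraries and 0.386 and 0.373 in the WT libraries. Over all coding features the medians were 3.99 and 3.44 RPKM in spt6-1 and 0.499 and 0.465 in WT, so the long loci stood higher in spt6-1 and lower in WT than the typical coding gene. The higher level in spt6-1 was not particular to them. Loci from 3000 and below 4000 bases were at 5.67 and 4.59 RPKM in spt6-1, and those from 4000 and below 5000 at 7.03 and 6.14. Changes were tested with limma on log2(RPKM + 0.5), which understates the change of genes with little RNA, and were called at a Benjamini-Hochberg adjusted p under 0.05 over all coding genes tested. Without a filter on low values, 129 of the 169 rose and 6 fell, with a median log2 change of 1.99. Over all coding genes in that fit 79.8% were called higher and 1.42% lower, with a median of 1.47. When genes had to reach 0.5 antisense RPKM in any 2 libraries, 167 members were tested, of which 127 rose and 6 fell, against 81.9% higher and 1.65% lower over all coding genes. Of those 167, 88 passed the filter through the spt6-1 libraries only and so had to differ. These directions, and every antisense rise given below for a gene or a list, rest on the authors' scaling. Centring each library on its median antisense value removes a shift of 2.09 log2, and 60 members then lay higher and 69 lower than that shift, while quantile normalization gave 69 higher and 39 lower. Over the 4728 coding genes tested the same scalings gave 961 higher and 2406 lower under centring and 1316 higher and 1494 lower under quantile normalization.

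**Figure D1:**
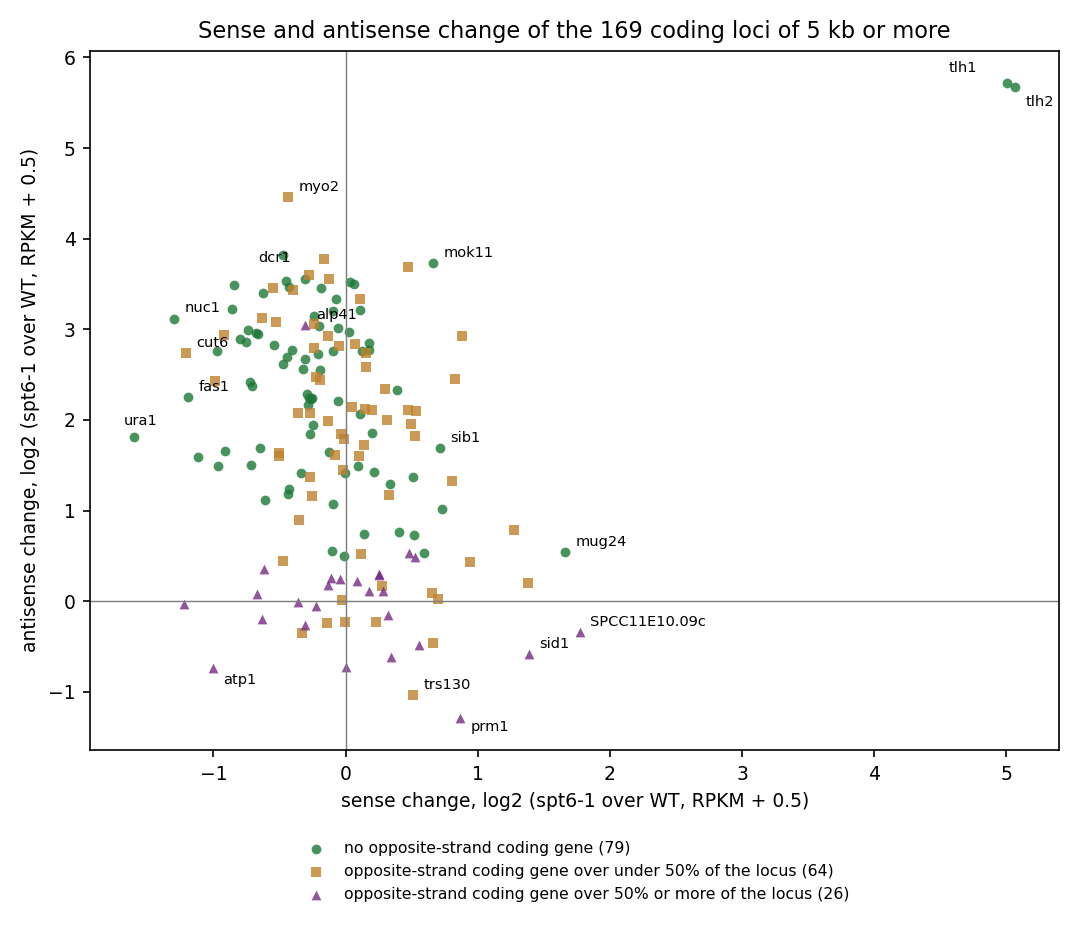
Log2 change (spt6-1 over WT, RPKM + 0.5) on the antisense strand (vertical axis) against the sense strand (horizontal axis), 1 point per locus of 5000 bases or more, with the symbol showing how much of the locus an opposite-strand coding gene covers. Antisense changes are from the unfiltered fit: the 79 loci with no opposite-strand coding gene (circles) all lie above 0, the 26 covered for 50% or more (triangles) have a median of 0.03 with alp41 far above it, and tlh1 and tlh2 lie apart from all others.

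What lies on the other strand divided the 169. An opposite-strand coding gene overlapped 90 members, 53.3% of them, against 42.5% of shorter coding loci, and there the antisense value includes that neighbour's own message. A further 19 overlapped only an opposite-strand non-coding RNA, and 60 overlapped neither. Among the 60 with neither, 58 were tested and 58 rose, and in the unfiltered fit 60 of 60 rose, with a median change of 2.63. Their median antisense level was 4.19 and 3.19 RPKM in spt6-1 and 0.130 and 0.1001 in WT. Antisense reads made up 12.6% and 11.9% of their reads in spt6-1 and 0.749% and 0.581% in WT. The groups of libraries were fully apart in every member of this class. With spt6-1 higher, they were also apart in 4427 of all 5123 coding features. Among the 2847 shorter ones with no opposite-strand coding gene this held in 2634.

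Taking together all 79 members with no opposite-strand coding gene, 78 rose in the unfiltered fit with a median of 2.42. Under centring 39 of the 77 tested lay higher and 20 lower than the 2.09 shift, and under quantile normalization 45 lay higher and 10 lower. Shorter coding genes with no such neighbour numbered 2847, of which 2529 rose with a median of 1.71. Of the 2552 of these that were tested, 652 lay higher and 1030 lower under centring, and 881 higher and 617 lower under quantile normalization. The exception among the 79 was SPCC70.05c, chosen for mention after its values were seen. It was not called, though its antisense RNA lay higher, at 2.21 and 1.74 RPKM in spt6-1 and 1.21 and 1.27 in WT. In the filtered fit its change was 0.50 (adjusted p = 0.0528, limma). Antisense reads were 15.3% and 14.7% of the reads of these 79 in spt6-1 and 1.94% and 1.41% in WT. In the shorter genes they were 4.395% and 4.74% in spt6-1 and 1.18% and 1.18% in WT. The shorter genes nearest in length, from 4000 and below 5000 bases, stood close to the long ones in spt6-1. There the shares were 13.0% and 13.4% in spt6-1 and 3.13% and 2.44% in WT. The difference between long and short genes was not tested.

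By locus length, the median unfiltered antisense change of genes with no opposite-strand coding gene was 1.12 for loci under 1000 bases, 1.62 from 1000 and below 2000, 1.99 from 2000, 2.17 from 3000, 2.29 from 4000 and 2.42 from 5000 upward. This order depends on the treatment of low values. Over tested genes, with a pseudocount of 0.1, the medians from 2000 bases upward were 3.11, 3.20, 2.94 and 3.59, and with voom on recovered reads they were 3.70, 3.74, 3.33 and 4.61, so that the class from 4000 broke the order. The order was not carried on inside the long class, where the median was 2.73 in 47 loci below 6000 bases, 2.29 in 23 from 6000 and below 8000, and 1.69 in 9 of 8000 or more. The level, as distinct from the change, did not follow length in the same way. In spt6-1 the median antisense RPKM of the long class was 4.17 and 3.32, below the 4.93 and 3.93 of the class just below it. In WT the long class was the lowest of the 6, at 0.189 and 0.166 RPKM, against 0.434 and 0.394 in that class.

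**Figure D2:**
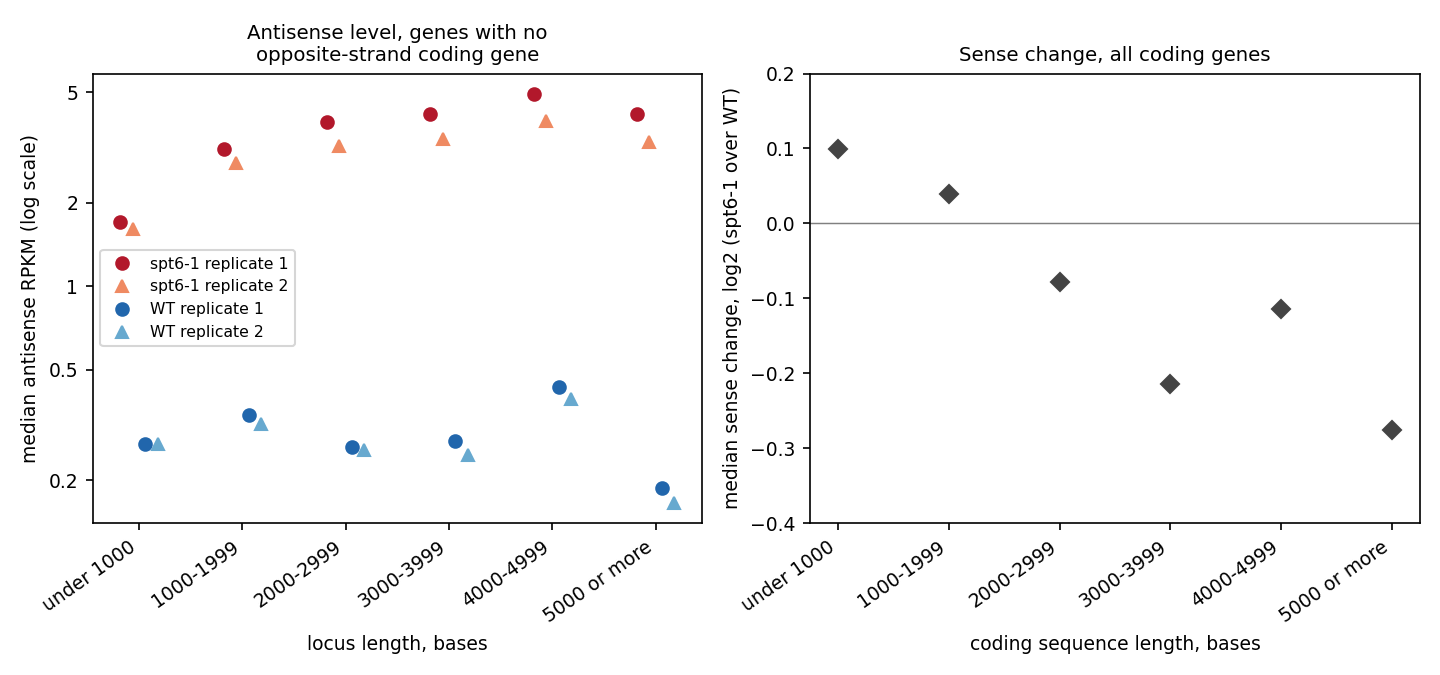
Left, median antisense RPKM (log scale) by locus length in each library for coding genes with no opposite-strand coding gene; the spt6-1 points of the longest class are at 4.17 and 3.32 and its WT points, at 0.189 and 0.166, are the lowest shown. Right, median log2 sense change (spt6-1 over WT) by coding sequence length over all coding genes, from 0.10 for sequences under 1000 bases to -0.28 for 5000 or more.

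Where an opposite-strand coding gene covered much of the locus, the antisense change was close to the sense change of that gene. Among the 26 members covered for 50% or more, 1 rose and 5 fell, with a median change of 0.03. Among the 32 covered for under 10%, all 32 rose, with a median of 2.52. For 23 pairs in which 1 neighbour covered 50% or more of the member, the member's antisense change and the neighbour's sense change lay within 0.5 log2 of each other in 20. These 2 values count largely the same reads, so their likeness is no independent evidence. The 36 loci whose coding sequence filled under 50% had 9 rises and 5 falls and a median of 0.10, and the other 133 had 120 rises and 1 fall and a median of 2.25, both in the unfiltered fit. This division by coding share was chosen after the annotation was seen, and 25 of the 36 still span 5000 bases or more in RefSeq.

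All 6 antisense falls were at loci overlapped by a coding gene. Over prm1, a conjugation gene, antisense RNA was at 45.6 and 37.9 RPKM in spt6-1 and 89.3 and 117 RPKM in WT, a log2 change of -1.29 ± 0.25 (SE; adjusted p = 0.000772, limma). The opposite-strand gene there is lys1, a lysine synthesis gene that covers 62.6% of the locus, and its sense change was -1.33. The antisense RNA of prm1 and the message of lys1 thus changed by like amounts. At trs130, which encodes a TRAPP subunit, antisense RNA was at 29.5 and 27.4 RPKM in spt6-1 and 68.3 and 50.7 RPKM in WT. The ribosomal protein gene rps2802 covers 10.05% of that locus and changed by -1.42 (adjusted p = 0.0151, limma), to 228 and 198 RPKM in spt6-1, against 677 and 480 in WT. The neighbour that covers most of that locus is msh6, at 28.6%, and its sense change was 0.21 (adjusted p = 0.417, limma), so not every neighbour of trs130 was lower. The other 4 were atp1 (-0.74), the splicing factor gene prp3 (-0.72), the splicing gene prp17 (-0.61) and the septation kinase gene sid1 (-0.58). Their main neighbours SPAC14C4.15c, uso1, fab1 and SPAC9G1.10c had sense changes of -0.85, -0.97, -0.62 (adjusted p = 0.0590, limma) and -0.79. Of the 6 falls, 3 were called with each library left out in turn, and those of prp17 and sid1 were lost without spt6-1 replicate 2, at adjusted p = 0.139 and 0.190 (limma), or without WT replicate 1, at 0.0923 and 0.0977. That of atp1 was lost without spt6-1 replicate 1, at adjusted p = 0.0564 (limma).

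**Figure D3:**
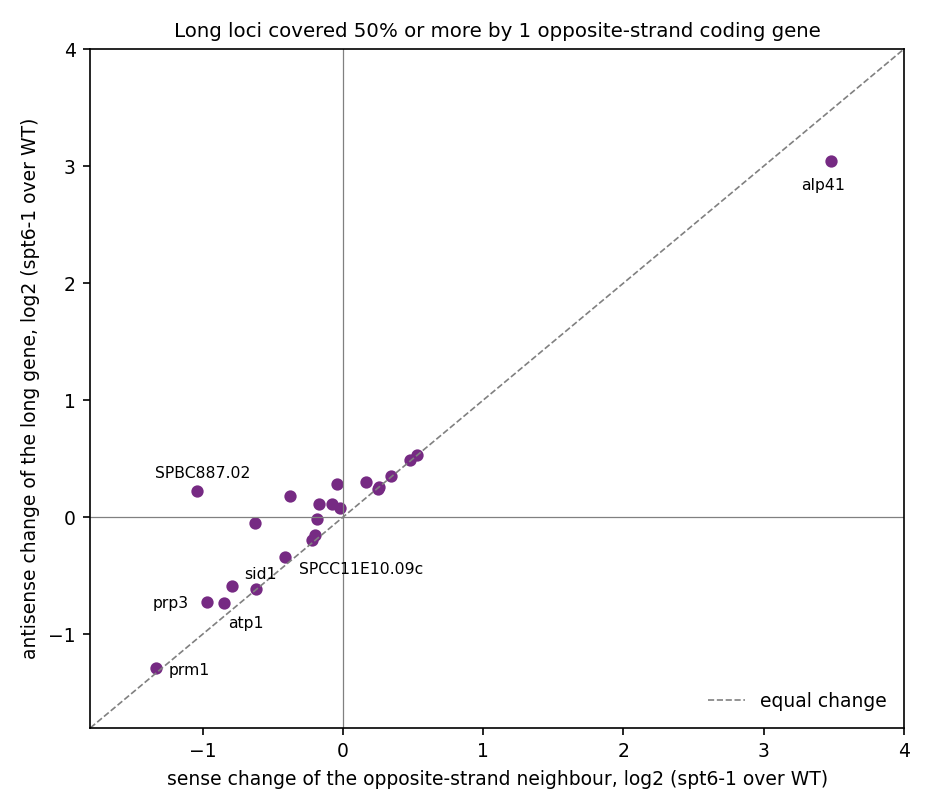
Antisense log2 change of a long locus (vertical axis, spt6-1 over WT) against the sense log2 change of the opposite-strand coding gene that covers 50% or more of it (horizontal axis), for 23 pairs, with the dashed line at equal change. Of the 23 points, 20 lie within 0.5 log2 of the line; prm1 is at -1.29 with its neighbour at -1.33.

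Some loci with large rises also lay over an opposite-strand coding gene whose sense value was higher. Over dcr1, which encodes the Dicer ribonuclease of RNA interference, antisense RNA was at 9.78 and 12.2 RPKM in spt6-1 and 0.406 and 0.475 RPKM in WT. The septin gene spn6 covers 33.8% of that locus on the opposite strand, and its sense RNA was at 20.1 and 27.6 RPKM in spt6-1 and 0.996 and 1.27 in WT. The only member covered for 50% or more whose antisense RNA rose was alp41, a tubulin folding gene named here after its values were seen, with 5.55 and 4.85 RPKM in spt6-1 and 0.190 and 0.189 in WT. Its neighbour mug62, over 78.2% of the locus, changed by 3.48. Of spn6 95.6% lies within dcr1, and of mug62 100% lies within alp41. Antisense and neighbour values thus count largely the same reads, and which transcript rose cannot be told from them.

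Outside the tlh pair the largest antisense rises were in myo2, myo52, SPCC737.08, mok11, SPAC4F10.16c, dcr1 and hrp3, in that order. Opposite-strand coding genes covered 33.8% of dcr1, as given above, and 15.6% of SPAC4F10.16c, and the other 5 had little or no such overlap. The myosin gene myo2, a motor of the cytokinetic ring, was at 15.3 and 13.3 antisense RPKM in spt6-1 and 0.216 and 0.127 in WT, a log2 change of 4.46 ± 0.21 (SE; adjusted p = 6.57e-07, limma). The myosin gene myo52, a motor for vesicles, was at 9.55 and 7.42 RPKM in spt6-1 and 0.132 and 0.127 in WT. Neither myosin changed by the test on the sense strand, at log2 -0.44 and -0.47 (adjusted p = 0.134 and 0.159, limma). SPCC737.08, named mdn1 in RefSeq and encoding a giant ATPase of ribosome assembly, spans 14362 bases and was at 9.74 and 6.72 antisense RPKM in spt6-1 and 0.130 and 0.130 in WT. The α-glucan synthase homologue gene mok11 was at 14.3 and 10.1 RPKM in spt6-1 and 0.443 and 0.443 in WT. SPAC4F10.16c was at 20.1 and 16.5 RPKM in spt6-1 and 0.960 and 0.936 in WT, and its neighbour SPAC4F10.17 had sense RNA at 29.8 and 16.9 RPKM in spt6-1 and 1.92 and 3.22 in WT. The chromatin remodeller gene hrp3 was at 9.48 and 7.55 RPKM in spt6-1 and 0.268 and 0.252 in WT. In each of these genes every spt6-1 library lay above every WT library, as in 4427 of all 5123 coding features.

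The highest mean antisense level in spt6-1 among members with no opposite-strand coding gene was in nup211, a nuclear pore scaffold gene, at 52.6 and 44.6 RPKM in spt6-1 and 4.18 and 4.07 in WT. Its sense level was 13.5 and 10.0 RPKM in spt6-1 and 19.1 and 17.3 in WT, so antisense stood above sense in spt6-1 only. An annotated non-coding RNA, SPNCRNA.1206, covers 4984 bases of the gene on that strand and was at 59.9 and 50.7 RPKM in spt6-1 and 4.71 and 4.61 in WT. SPCC1919.05, the Ski complex gene ski3 of RefSeq, which a coding gene overlaps for 13.4%, was higher still, at 69.3 and 70.6 antisense RPKM in spt6-1 and 5.14 and 5.83 in WT. There the non-coding SPNCRNA.1273 reached 216 and 223 RPKM in spt6-1, against 13.6 and 14.7 in WT. In all, 46 non-coding RNAs lay opposite to members, 42 were tested, 28 rose and none fell by limma (voom and an unadjusted limma p under 0.05 gave 0 too), where 21.8% of all features were called higher and 6.67% lower on their own strand. Coding genes were 5060 of those 6547 features tested, but only 610 of the 1426 called higher and 415 of the 437 called lower. Non-coding features thus rose more often, and fell less often, than these shares in the whole table too. The 28 rises were not compared with non-coding features elsewhere.

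Antisense RNA exceeded sense RNA, per length, in both libraries of spt6-1 at 29 of the 169 members and in both of WT at 24. Over all 5123 coding features it did so at 599 in spt6-1 and 432 in WT. Among the 79 members with no opposite-strand coding gene these counts were 5 in spt6-1 and 0 in WT, against 223 and 116 of 2847 such shorter genes. The 5 were the formin gene cdc12 and nup211, and 3 more named after their values were seen: SPAC56F8.02, SPBC609.01 and the transcription factor gene mbx2. For cdc12, which nucleates actin for the cytokinetic ring, antisense RNA was at 15.8 and 13.2 RPKM in spt6-1 and 2.27 and 2.30 in WT. Its sense RNA was at 12.1 and 9.04 RPKM in spt6-1 and 17.8 and 17.5 in WT.

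Among the 10 longest loci, 8 rose on the antisense strand, close to the 81.9% of all coding genes tested. The others were rad3, the DNA damage checkpoint kinase gene, and SPBPJ4664.02, which RefSeq describes as a glycoprotein. At rad3, 66.1% of which lies over opposite-strand coding genes, chiefly swi1, antisense RNA was at 8.30 and 7.21 RPKM in spt6-1 and 8.16 and 7.91 in WT, and the groups overlapped. SPBPJ4664.02 was under the filter, at 0.475 and 0.302 RPKM in spt6-1 and 0.0409 and 0.00474 in WT, and was called higher only in the unfiltered fit. The longest locus, sib1, which encodes a synthetase of the siderophore ferrichrome, was at 2.97 and 2.41 RPKM in spt6-1 and 0.524 and 0.442 in WT. The dynein heavy chain gene dhc1 was at 3.57 and 3.27 RPKM in spt6-1 and 0.379 and 0.418 in WT. The lipid transfer gene vps1302 was at 4.22 and 3.81 RPKM in spt6-1 and 0.0968 and 0.0695 in WT.

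**Figure D4:**
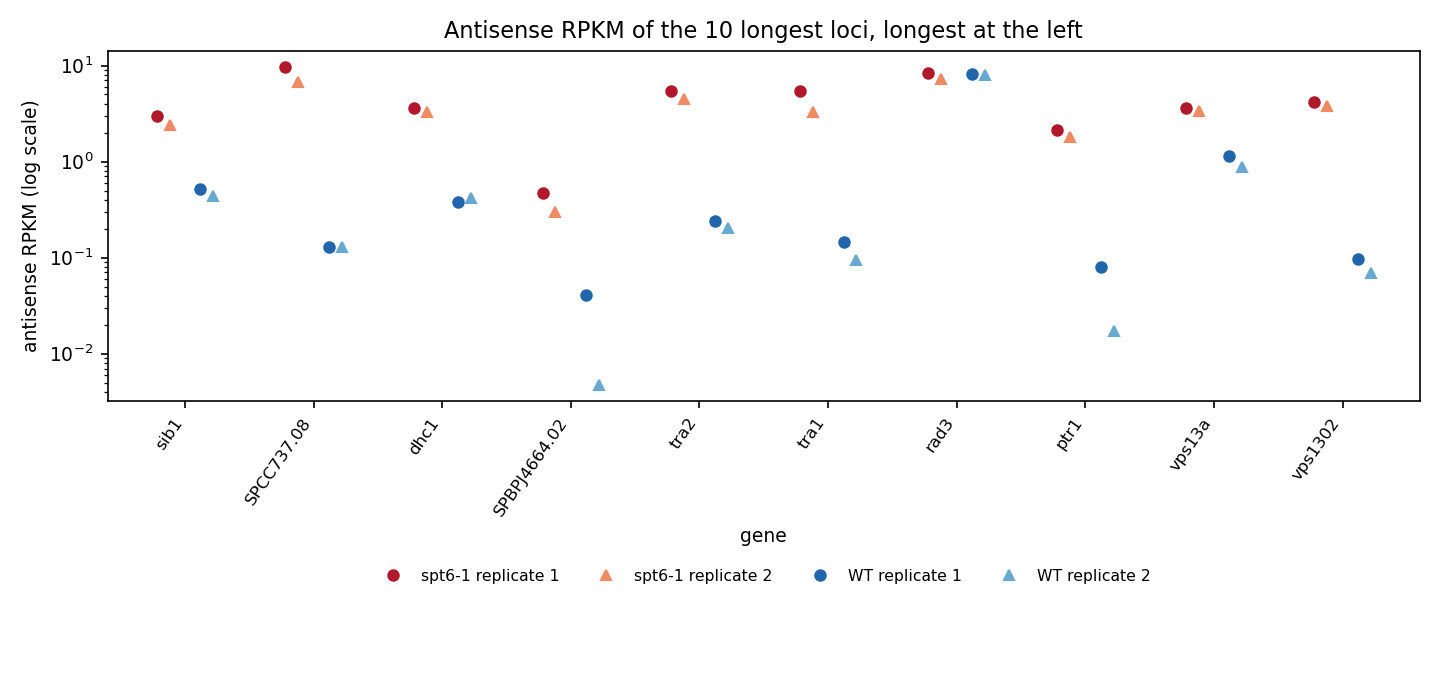
Antisense RPKM (log scale) of the 10 longest loci in each library, spt6-1 in red and orange and WT in blue. The spt6-1 points lie above the WT points for every gene except rad3, where 8.30 and 7.21 RPKM in spt6-1 stand beside 8.16 and 7.91 in WT.

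On the sense strand the long genes changed less and leaned lower. Of the 169, all of which were tested, 15 rose and 22 fell, against 12.1% higher and 8.2% lower over coding genes, with a median change of -0.10 in members and 0.03 in all coding genes. Centred libraries gave 10 rises and 28 falls, and quantile normalization gave 6 and 41. Over the 5060 coding genes tested, centring gave 484 rises and 577 falls and quantile normalization 360 and 807, so falls became more frequent in all coding genes too. Without a filter on low values 7 rose and 10 fell, where 8.01% of coding genes were higher and 4.66% lower. The falls depend on 1 library more than others: 2 of the 22 were called without spt6-1 replicate 2, 9 without spt6-1 replicate 1, 9 without WT replicate 1 and 6 without WT replicate 2. Of the 15 rises, 8, 6, 7 and 9 were called without those same libraries. None of these 37 changed sign in any of these 4 fits. Called with each library left out in turn were 6 rises (tlh1, tlh2, SPCC11E10.09c, mug24, sid1 and SPAC57A7.05) and 1 fall (nuc1).

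By coding sequence length the median sense change was 0.10 below 1000 bases, 0.04 from 1000 and below 2000, -0.08 from 2000, -0.21 from 3000, -0.11 from 4000 and -0.28 for the 71 genes of 5000 or more. Of those 71, 5 rose and 14 fell, against 4 and 20 under centring and 3 and 27 under quantile normalization. Of the 12 with 8000 bases of coding sequence or more 2 rose and none fell by limma (voom and an unadjusted limma p under 0.05 each gave 1), and the median was -0.07. The spread between replicates was alike, with a median within-group SD of 0.207 log2 in the 71 genes and 0.201 over all coding genes. Of the 22 sense falls, 18 rose and 1 fell on the antisense strand, where 127 of 167 members rose in all. Of the 15 sense rises, 10 rose and 2 fell on the antisense strand.

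The counts of the role lists that follow stand beside 12.1% higher and 8.2% lower over coding genes on the sense strand and 81.9% higher on the antisense strand. The lists were written with earlier results of these data known and do not hold every member of a role. Each count covers the listed members alone. Of the lists, that of large metabolic enzymes had the lowest median change on the sense strand. Other enzyme genes stand in no list. Of these, sir1 (-0.44, adjusted p = 0.328, limma) and SPBC3H7.03c (kgd1 in RefSeq; 0.20, adjusted p = 0.589, limma) were not called, while atp1 fell. Of 6 members, 5 fell and 1 rose, with a median change of -1.09 (-1.21 under centring and -1.33 under quantile normalization, where the 5 falls but not the rise were called). With no filter on low values 2 of the falls and not the rise were called, and voom called 4 falls and the rise. ura1, which encodes the enzyme of the first steps of pyrimidine synthesis, was at 91.1 and 70.0 RPKM in spt6-1 and 193 and 305 RPKM in WT. Its log2 change was -1.60 ± 0.31 (SE; adjusted p = 0.0106, limma), and the groups did not overlap. cut6, the acetyl-CoA carboxylase gene, was at 153 and 107 RPKM in spt6-1 and 261 and 337 in WT, a change of -1.21 ± 0.30 (adjusted p = 0.0250, limma). The fatty acid synthase genes fas1 and fas2, whose upstream stretches are given above with that of cut6, encode the subunits of one complex. fas1 was at 192 and 144 RPKM in spt6-1 and 306 and 472 in WT. fas2 was at 151 and 98.9 RPKM in spt6-1 and 246 and 242 in WT. All 3 genes of fatty acid synthesis were thus lower in every spt6-1 library than in any WT library, as were 1560 of all 5123 coding features. The glutamate synthase gene glt1 was at 31.8 and 32.8 RPKM in spt6-1 and 55.4 and 72.5 in WT. sib1 went the other way, with 15.8 and 14.6 RPKM in spt6-1 and 8.41 and 9.74 in WT, a change of 0.71 ± 0.18 (adjusted p = 0.0279, limma). Antisense RNA of all 6 rose, though under centring only 1 lay higher and 1 lower than the shift, and it was far below the sense level, as at cut6 with 3.54 and 2.63 RPKM in spt6-1 and 0.0177 and 0.0519 in WT. These calls are near the threshold: with 1 library left out, ura1 was called in 3 of 4 fits (adjusted p = 0.0504 without spt6-1 replicate 2, limma), cut6 in 2, fas1, fas2 and glt1 in 1 each and sib1 in none. The adjusted p over those 4 fits ran from 0.0344 to 0.1001 for cut6, from 0.0395 to 0.137 for fas1, from 0.0370 to 0.170 for fas2, from 0.0265 to 0.0878 for glt1 and from 0.0584 to 0.131 for sib1 (limma).

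Other biosynthetic and chromatin genes were mixed. nuc1, which encodes the largest subunit of RNA polymerase I, was at 46.7 and 34.5 RPKM in spt6-1 and 108 and 91.2 RPKM in WT, a change of -1.30 ± 0.24 (adjusted p = 0.00946, limma). It was the 1 fall called with any single library left out. Among 12 chromatin and transcription members 2 rose and 2 fell, and 12 of 12 rose on the antisense strand, against 9 higher and 2 lower under centring. mot1, a remodeller that removes TATA-binding protein, changed by -0.84 on the sense strand, and SPAC631.02, the bromodomain gene bdf2 of RefSeq, by 0.83. tra2, the NuA4 counterpart of the SAGA scaffold gene tra1, was at 23.2 and 20.6 RPKM in spt6-1 and 11.3 and 12.1 in WT (0.88 ± 0.18, adjusted p = 0.0124, limma), and the call was lost without spt6-1 replicate 1 (adjusted p = 0.0764) or WT replicate 1 (0.0606). tra1 itself was at 14.8 and 11.9 RPKM in spt6-1 and 13.1 and 16.4 in WT, and its groups overlapped. These paralogues span 11451 and 11183 bases and had antisense changes of 2.92 and 2.93. Their difference on the sense strand was not tested.

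Of 10 cytoskeleton and motor genes 3 fell on the sense strand and none rose by limma (voom and an unadjusted limma p under 0.05 gave 0 too), with a median of -0.45. The 3 were rng2, for3 and cdc12. rng2, the ring scaffold gene related to IQGAP, was at 8.27 and 9.16 RPKM in spt6-1 and 15.6 and 16.8 in WT, with antisense RNA at 5.18 and 4.37 RPKM in spt6-1 and 0.0552 and 0.0691 in WT. The formin gene for3, which builds actin cables, was at 9.94 and 7.45 RPKM in spt6-1 and 14.5 and 15.2 in WT. On the antisense strand 8 of the 10 rose, about the share of all coding genes, against 4 higher and 3 lower under centring. The other 2, cyk3 and peg1, named for that reason, lie over an opposite-strand coding gene for 45.0% and 88.4% of the locus.

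Among 21 signalling members, which include the giant phosphatidylinositol 3-kinase-like kinases, 1 rose and 3 fell on the sense strand and 17 rose on the antisense strand, against 10 higher and 6 lower under centring. The antisense share, 81.0%, was near the 81.9% of all coding genes. The falls were the adenylate cyclase gene cyr1, at 13.2 and 10.6 RPKM in spt6-1 and 25.6 and 21.99 in WT, and the histidine kinase genes mak1 and mak3, with changes of -0.74 and -0.80. The TOR kinase gene tor1 was at 13.7 and 14.8 RPKM in spt6-1 and 15.4 and 17.6 in WT, with a sense change of -0.20 (adjusted p = 0.443, limma). Its antisense RNA was at 5.84 and 4.83 RPKM in spt6-1 and 0.227 and 0.186 in WT. The replication and chromosome list had 10 members, of which 2 fell on the sense strand and 8 rose on the antisense strand, against 5 higher and 3 lower under centring. Its falls were in pol1, the catalytic subunit gene of DNA polymerase alpha (-0.63), and swi1, a replication fork protection gene that lies opposite rad3 (-0.63).

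Of the 8 glucan synthase genes, which build the cell wall, 1 rose and 1 fell on the sense strand (12.5% each, near the 12.1% and 8.2% of coding genes), and with no filter on low values neither was called. Antisense RNA rose in 8 of 8, against 2 higher and 3 lower under centring. bgs4, an essential β-glucan synthase gene, was at 53.2 and 57.1 RPKM in spt6-1 and 87.4 and 165 RPKM in WT, a change of -1.12 ± 0.33 (adjusted p = 0.0455, limma). Its WT libraries stood far apart, and without WT replicate 2 the change was -0.66 (adjusted p = 0.135, limma). mok11 was at 27.9 and 23.0 RPKM in spt6-1 and 14.6 and 17.1 in WT (0.66 ± 0.20, adjusted p = 0.0478, limma); the call was lost with any 1 library left out and under voom, quantile or centred scaling. ags1, the main α-glucan synthase gene, was at 48.2 and 39.3 RPKM in spt6-1 and 65.0 and 104 in WT (-0.91, adjusted p = 0.0546, limma).

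Groups with few sense calls also had antisense rises, which under centring were 6 higher and 1 lower for ribosome biogenesis, 5 and 9 for membrane traffic, 2 and 2 for ubiquitin, 2 and 2 for the nuclear pore and 1 and 2 for RNA turnover. Ribosome biogenesis and translation members numbered 9, of which 1 fell on the sense strand, SPBC29A10.10c (dbl8 in RefSeq; -0.68), and 9 rose on the antisense strand. The kinase gene gcn2, a sensor of amino acid shortage, was at 12.05 and 9.64 antisense RPKM in spt6-1 and 0.546 and 0.497 in WT. Among 19 members for membrane traffic, lipid transfer and transport 1 fell on the sense strand, SPAPB21F2.02 (dop1 in RefSeq; -0.71), and 14 rose and 1 fell on the antisense strand. The Golgi exchange factor gene sec71 was at 11.4 and 9.39 antisense RPKM in spt6-1 and 0.376 and 0.5001 in WT. No sense call was made among the 6 ubiquitin and protein turnover members, the 6 nuclear pore members or the 5 members listed for splicing and RNA turnover, and all of these rose on the antisense strand. At an unadjusted p under 0.05, 1 ubiquitin member was higher and 1 nuclear pore and 2 RNA turnover members were lower on the sense strand, and voom called 0 of them. Examples are the ubiquitin ligase gene ptr1, at 2.11 and 1.81 antisense RPKM in spt6-1 and 0.0800 and 0.0173 in WT, and the spliceosome helicase gene brr2, at 3.41 and 2.64 in spt6-1 and 0.236 and 0.246 in WT. Of the 107 listed members, alm1, cut4, pan1, SPBC21D10.09c, tra1 and tra2 stand in 2 lists each, and pan1, an actin patch gene, is listed under RNA turnover by its name only. The splicing genes prp3 and prp17 stand in no list, and their antisense RNA fell (-0.72 and -0.61). The flocculin gene SPCC1742.01 (gsf2 in RefSeq), the 1 cell surface member, was at 215 and 180 sense RPKM in spt6-1 and 108 and 156 in WT (0.60, adjusted p = 0.167, limma), and its antisense RNA was under the filter.

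The tlh pair rose most on either strand. tlh1 was at 92.7 and 59.2 sense RPKM in spt6-1 and 3.61 and 0.811 RPKM in WT, a log2 change of 5.01 ± 0.51 (SE; adjusted p = 0.000793, limma). Its antisense RNA was at 40.5 and 24.2 RPKM in spt6-1 and 0.123 and 0.0821 in WT. tlh2 gave nearly the same values, 91.2 and 61.8 sense RPKM in spt6-1 and 3.48 and 0.783 in WT, and the same reads may be counted for both. The WT libraries differed from each other, and leaving out either kept the call, with a change of 5.83 without WT replicate 1 and 4.18 without WT replicate 2.

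The next largest sense rises were mostly in loci with long annotated flanks. SPCC11E10.09c, which RefSeq describes as alpha-amylase-like, was at 15.1 and 13.9 RPKM in spt6-1 and 3.70 and 4.08 RPKM in WT, a change of 1.77 ± 0.18 (adjusted p = 0.000793, limma). mug24, which RefSeq describes as an RNA-binding protein gene, was at 9.96 and 13.7 RPKM in spt6-1 and 2.90 and 3.89 in WT, and sid1 was at 10.8 and 8.45 RPKM in spt6-1 and 3.23 and 3.46 in WT. These 3 have coding sequences of 1437, 1965 and 1416 bases within loci of 5699, 5020 and 5573 bases. RNA over any part of the annotated exons counts in the value, so which part rose cannot be told from it. SPAPB2B4.04c, a calcium pump gene named pmc1 in RefSeq, was at 31.6 and 34.7 RPKM in spt6-1 and 9.78 and 18.3 in WT (1.27 ± 0.30, adjusted p = 0.0205, limma). SPAC57A7.05 was at 9.45 and 7.81 RPKM in spt6-1 and 2.48 and 3.60 in WT. The antisense changes of these 5 loci ran from -0.58 at sid1 to 0.78 at SPAPB2B4.04c. The other sense rises were not alike in this, with antisense changes of 2.92 at tra2, 2.46 at SPAC631.02 and -1.29 at prm1, whose sense change was 0.87. Of the falls outside the role groups, atp1, the gene of the ATP synthase alpha subunit, was at 66.6 and 59.7 RPKM in spt6-1 and 130 and 124 in WT. SPCC1672.01, a histidinol-phosphatase gene of histidine synthesis, was at 7.82 and 4.91 RPKM in spt6-1 and 16.0 and 14.3 in WT.

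**Figure D5:**
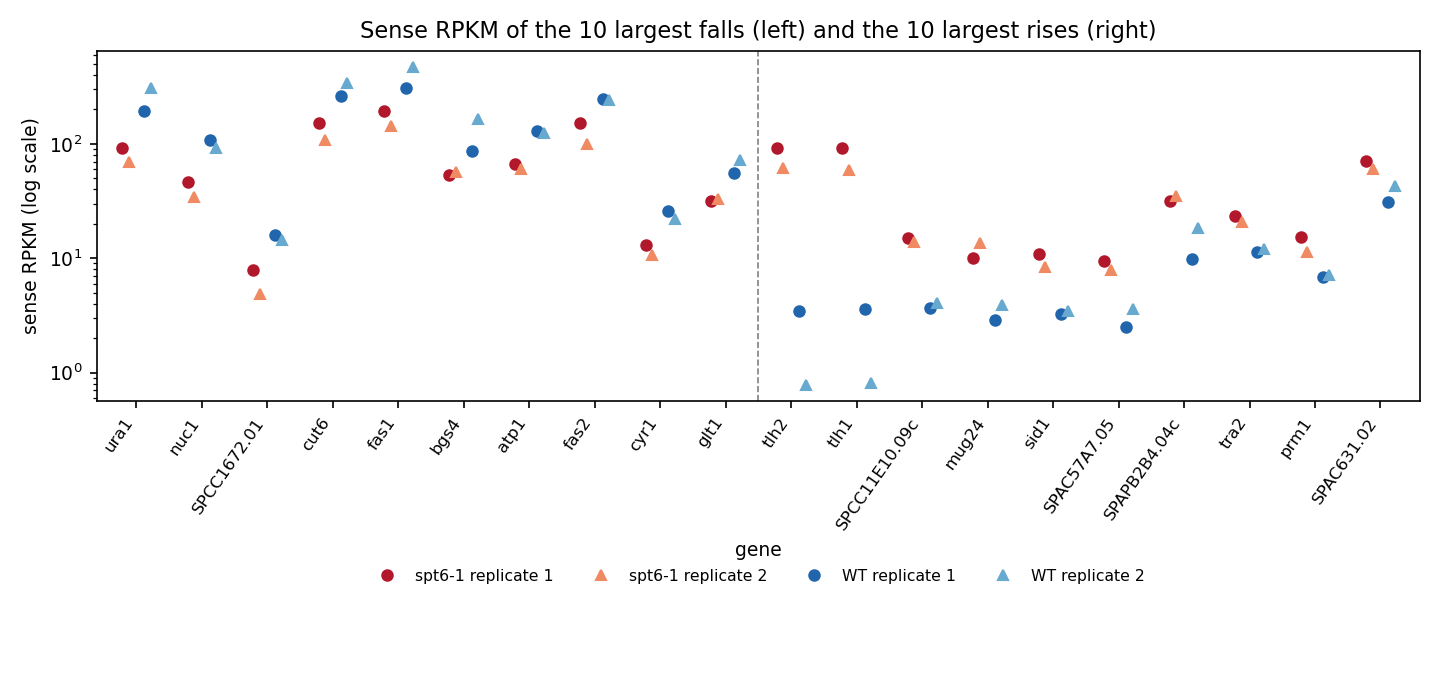
Sense RPKM (log scale) in each library for the 10 long genes with the largest called fall (left of the dashed line) and the 10 with the largest called rise (right of it), spt6-1 in red and orange at the left of each gene and WT in blue. In all 20 genes the spt6-1 points do not overlap the WT points, and the WT points of tlh1 lie apart at 3.61 and 0.811.

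The change of the antisense to sense ratio, taken within each library, followed the antisense change. Of 167 members tested 122 rose and 11 fell, against 71.7% higher and 6.04% lower over coding genes. The same library total divides both strands, so it largely cancels in the ratio. Centring each library on its median ratio, which takes out the shift that genes share, gave 57 rises and 54 falls, and quantile normalization of the ratios gave 69 and 28. Over the 4682 coding genes tested, centring gave 941 higher and 1904 lower and quantile normalization 1243 and 1257.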

How the data were processed

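Strand-specific RNA-seq of polyadenylated RNA gave 1 table of RPKM values, as deposited by the authors. Reads were aligned with TopHat to ASM294v2, per the submitters' processing notes; which tool counted the reads, and on which annotation, is not given in the sources used here. Recovered whole reads showed that the authors divided sense reads by exon length and antisense reads by locus length. A deposited list of splice junctions was not used.

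Changes were fitted with limma 3.58.1 (lmFit and eBayes with trend, two-sided, R 4.3.3) on log2(RPKM + 0.5) over all features (sense, 1 RPKM or more in 2 or more libraries) or all coding genes (antisense and ratio, 0.5 antisense RPKM), with Benjamini-Hochberg adjusted p and a threshold of 0.05. The fit was tried on simulated sense values only, with changes larger than most sense changes called in members. Antisense values and ratios were not simulated. The unfiltered fits also hold mitochondrial coding rows. Tables and figures used pandas 2.3.3, numpy 2.4.6 and matplotlib 3.10.9, and copies were sought with blastn 2.17.0 (95% identity over 200 bases). Sequences are from RefSeq ASM294v3, where the table's coding sequence read from ATG to stop for 168 of the 169 members; all 169 matched a RefSeq gene.

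The members, role lists and tests were chosen with earlier results of these data known. Genes were named by rule: the 10 largest called rises and falls on each strand with groups that do not overlap, the 10 longest, up to 4 sense and 2 antisense genes per list by adjusted p, the 3 on either side of the length limit, and the 5 highest and 5 lowest antisense levels in spt6-1; others are named where a count of 5 or fewer calls for it. The labels tie same-numbered replicates by number alone, though their sense deviations correlated at 0.323, so a shared batch cannot be told. Alternatives covered pseudocounts, filters, scalings, voom on recovered reads, a replicate block and each library left out.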

Additional observations from a re-analysis of the deposited data

How the results depend on the processing

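Sense counts of members were 15 higher and 22 lower as reported. They were 7 and 10 with no filter, and 6 and 41 with a median of -0.371 under quantile normalization. Restricting the members gave 6 and 10 for loci of 6000 bases or more, 6 and 14 with no opposite-strand coding gene, and 5 and 14 for coding sequences of 5000 bases or more. Leaving out 1 library gave 6 to 12 higher and 2 to 10 lower.

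Antisense counts were 127 higher and 6 lower, and 122 to 128 higher and 4 to 7 lower with 1 library left out. Quantile normalization gave 69 and 39 with a median of 0.185, and centring gave 60 and 69 with a median of -0.097, the opposite sign; centring by construction removes the shift between library medians. Restricting the members gave 53 and 2 for loci of 6000 bases or more, 76 and 0 (median 2.553) with no opposite-strand coding gene, and 67 and 0 (median 2.398) for coding sequences of 5000 bases or more; these counts of 0 by limma were also 0 by voom and with unadjusted p-values at 0.05. The median was 3.062 with a pseudocount of 0.1, 1.497 with 1 and 3.453 with voom on recovered reads, so its size depends on the pseudocount.

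Ratio counts were 122 and 11, and 119 to 120 higher and 8 to 11 lower with 1 library left out. They were 69 and 28 under quantile normalization, 57 and 54 under centring, 52 and 5 for loci of 6000 bases or more, 69 and 1 with no opposite-strand coding gene, and 65 and 0 for coding sequences of 5000 bases or more.

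The numbers of the replicates are not known to pair them. Fitted with a replicate block, members were 19 higher and 28 lower on the sense strand, 132 and 7 on the antisense strand and 123 and 12 for the ratio. Deviations of same-numbered sense libraries correlated at 0.323 over 6547 features.

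Centring takes the same 2.09 from every antisense change, so each gene below that has a negative value by construction, and its sign says nothing about the gene. Among named genes whose antisense rise was called on the authors' scaling, 14 turned negative under both centring, given first, and quantile normalization, given after it: SPAPB2B4.04c (-1.31 and -0.47), bgs2 (-1.37 and -0.026), ecm29 (-0.72 and -0.37), glt1 (-0.60 and -0.43), mug24 (-1.55 and -1.17), myp2 (-0.97 and -0.41), nup132 (-0.92 and -0.57), nup189 (-0.68 and -0.25), sib1 (-0.40 and -0.38), sir1 (-0.91 and -0.23), spp42 (-0.48 and -0.41), ubr1 (-0.14 and -0.087), vps13a (-0.68 and -0.64) and zfs1 (-1.35 and -0.96). Of the same called rises, ags1 (-0.43), alm1 (-0.15), bgs4 (-0.50), not1 (-0.59), top2 (-0.016) and ura1 (-0.28) turned negative under centring only. Among the 60 members with no annotated gene opposite, WT medians of 0.130 and 0.1001 antisense RPKM lie under the pseudocount of 0.5, so the size of their rise is limited by it.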

Other observations

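Members outside every role list numbered 62. On the sense strand 11 of them rose and 4 fell, with a median log2 change of 0.12, and on the antisense strand 34 of the 61 tested rose and 5 fell, with a median of 1.01. The 107 listed members had 4 sense rises and 18 sense falls (median -0.24), and 93 antisense rises and 1 fall among 106 tested (median 2.24). The lists were made of named genes of known function, but the 62 outside them hold such genes too, among them prp3, prp17, atp1 and sid1. The contrast therefore depends on which genes were listed, and no test compared these classes.

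Members with no intron had 83 antisense rises and no fall among 97 tested by limma (voom and an unadjusted limma p under 0.05 gave 0 too), with an unfiltered median of 2.17. Those with 1 or 2 introns had 31 rises and 3 falls among 46 (median 1.71), and those with 3 or more had 13 rises and 3 falls among 24 (median 1.17). The WT antisense medians were 0.254 and 0.246 RPKM with no intron, 0.994 and 0.912 RPKM with 1 or 2, and 1.48 and 1.71 RPKM with 3 or more; the part of neighbours' messages in this order was not tested.

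At SPBC887.02 the 2 features on the opposite strand moved apart. The ribosome biogenesis gene noc3 was at 12.5 and 14.5 RPKM in spt6-1 and 30.6 and 26.1 RPKM in WT, while the non-coding SPNCRNA.1613 changed by 3.89, and the antisense RNA of the locus as a whole had a change of 0.23, which was not called. The highest antisense level of any member was at str2, a siderophore transporter gene, with 364 and 214 RPKM in spt6-1 and 454 and 324 RPKM in WT, opposite the ribosomal protein gene rpl6.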
